A study of Mus musculus with 40 samples.

Results

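The genes followed here were 10 Fc receptors and myeloid C-type lectin receptors, chosen by symbol and not by their levels, out of 45706 genes in the tables of a mouse colon tumor study. They were 4 Fc gamma receptors (Fcgr1, Fcgr2b, Fcgr3 and Fcgr4), their shared signaling subunit Fcer1g, and 5 lectins (Clec4d, Clec4e, Clec4n, Clec5a and Clec7a), each with 1 Ensembl gene. RNA was sequenced from 40 libraries in 10 groups of 4, made from sorted neutrophils, monocytes, epithelial cells and stromal cells. Tumor-bearing mice carried the transgene Cdx2CreERT2 - Apc fl/fl and were given tamoxifen in corn oil at 25 mg/kg when 8 to 10 weeks old. In these mice the Cdx2 promoter drives an inducible Cre, so that Apc is lost in colon epithelium. They gave neutrophils and monocytes from blood and from tumor, and epithelial and stromal cells from tumor. Their strain was labelled as a mix of C57Bl6 and Sv129, with a running number after Sv129 that differed in each library. Healthy mice were C57Bl6, with no transgene and no tamoxifen, and gave blood neutrophils, blood monocytes, and colon epithelial and stromal cells. Their age was not given. Strain, transgene and tamoxifen thus cannot be told apart in any comparison of tumor-bearing with healthy mice. Sorting gates were CD45+ CD11b+ MHCII- Ly6G+ Ly6C low for neutrophils, CD45+ CD11b+ MHCII- Ly6G- Ly6C high for monocytes, EpCAM+ CD45- for epithelium and EpCAM- CD45- for stroma. Solid tissue was digested with enzymes before the sort and blood was not, so that tumor and digestion cannot be told apart in a comparison of tumor with blood. Some blood libraries pooled mice according to their titles, and some mice gave libraries to several groups, which the tests treated as independent.

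Fc gamma receptors bind antibody-coated particles. Fcgr1, Fcgr3 and Fcgr4 encode activating receptors that signal through the immunoreceptor tyrosine-based activation motif (ITAM) of the FcR gamma chain, the product of Fcer1g, whereas Fcgr2b encodes the inhibitory receptor, which carries its own inhibitory motif and recruits phosphatases. Among the lectins, Clec4e (Mincle), Clec4d (MCL) and Clec4n (Dectin-2) sense glycolipids or mannans of microbes and also pair with the FcR gamma chain. Clec5a (MDL-1) signals through DAP adaptors, the product of Tyrobp among them, and Clec7a (Dectin-1) senses beta-glucans and has a signaling motif of its own that engages the kinase Syk.

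In the GENCODE annotation of GRCm38, which mm10 also names, 4 of the genes lay in 1 stretch of chromosome 1, in the order Fcgr2b (170958617 to 170976547, minus strand), Fcgr4 (171018920 to 171029761, plus strand), Fcgr3 (171051174 to 171064935, minus strand) and Fcer1g (171229572 to 171234365, minus strand). Fcgr1 lay apart on chromosome 3 (96282909 to 96293969, minus strand). Clec4n (123229843 to 123247021, plus strand), Clec4d (123262111 to 123275265, plus strand) and Clec4e (123281789 to 123289870, minus strand) were neighbours on chromosome 6, with 6523 bases between Clec4d and Clec4e and 15089 bases between Clec4n and Clec4d. Clec5a (40574894 to 40585821) and Clec7a (129461591 to 129472779) lay elsewhere on chromosome 6, both on the minus strand. Fcgr2b and Fcgr3 share sequence, with 9.58% of the 50-base windows of the Fcgr3 transcripts and 6.95% of those of Fcgr2b found also in transcripts of other genes (Fcgr2b for Fcgr3, and Fcgr3, Gm38204 and Cplx2 for Fcgr2b), so that the split of reads between them is less certain. Fcgr2b also overlaps Gm38204, Fcgr3 overlaps Mir6546 and Fcgr4 overlaps Gm26110, and the library kit did not mark strand. Of the 50-base windows of Fcgr1, Fcgr4, Fcer1g, Clec4d, Clec4e, Clec5a and Clec7a, 0.0% occurred in another gene, and in Clec4n 0.686%.

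The sequences just before the start sites of Clec4d and Clec4e, the neighbours that rose furthest in tumor monocytes, and of Fcgr1, the receptor that was nearly limited to monocytes, are shown from RefSeq. Each runs 5′ to 3′ on the strand of its gene over the 250 bases before the start. Capitals mark matches to 5 motifs searched on both strands, the PU.1 core GAGGAA, the C/EBP motif TTGCNNAA, the interferon-activated GAS motif TTCNNNGAA, the AP-1 motif TGANTCA and the NF-kappaB motif.
Clec4d (GRCm38, chr6:123261857-123262106, plus strand): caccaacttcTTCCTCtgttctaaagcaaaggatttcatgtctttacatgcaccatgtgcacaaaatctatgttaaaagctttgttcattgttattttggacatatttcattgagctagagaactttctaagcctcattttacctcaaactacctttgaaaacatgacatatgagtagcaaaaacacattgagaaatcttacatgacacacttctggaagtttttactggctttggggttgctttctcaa
Clec4e (GRCm38, chr6:123289872-123290121, minus strand): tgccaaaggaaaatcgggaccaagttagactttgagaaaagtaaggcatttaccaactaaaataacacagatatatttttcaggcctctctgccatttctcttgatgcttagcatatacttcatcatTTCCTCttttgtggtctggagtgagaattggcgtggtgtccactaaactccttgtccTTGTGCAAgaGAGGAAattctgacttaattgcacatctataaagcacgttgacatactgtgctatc
Fcgr1 (GRCm38, chr3:96293970-96294219, minus strand): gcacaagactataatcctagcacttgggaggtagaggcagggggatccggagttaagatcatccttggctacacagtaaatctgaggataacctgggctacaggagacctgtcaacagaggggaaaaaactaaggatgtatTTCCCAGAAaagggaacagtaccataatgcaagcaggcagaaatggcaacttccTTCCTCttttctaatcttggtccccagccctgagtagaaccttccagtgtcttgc
RefSeq promoters (250 bases before to 50 after the start) were matched for 9 of the 10 genes, all but Clec4n. The PU.1 core was found in 7 of these 9, against 28.3% of 27025 promoters of the same length. The GAS motif was found in 1 of 9, Fcgr1, against 8.47% of all promoters. The C/EBP motif was found in 2 of 9, Clec4e and Fcgr3, against 10.8%, and the NF-kappaB motif in Fcgr3 and Fcgr4, against 8.18%. The AP-1 motif was found in 0 of 9, against 7.93%. These matches describe the letters of the windows and not sites in use.

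Library totals ran from 10717873 to 38002939 counts, and mitochondrial genes took 5.34 to 83.9% of them. Sorted cells carried their defining markers, with a summed RPKM (reads scaled by transcript length and by mapped reads) over 10 neutrophil markers of 1930 to 20400 in neutrophil and 33.4 to 272 in monocyte libraries, and over 8 monocyte markers of 195 to 539 in monocyte and 5.80 to 22.2 in neutrophil libraries. Tumor neutrophil replicate 1 stood apart, with neutrophil markers at 1930 against 6040 to 12500 in the other 3, and 10 epithelial markers at 163 against 12.1 to 35.7. Tumor stroma went against its label in fibroblast markers, 8 of which summed to 6.07 to 24.7 RPKM against 369 to 2030 in healthy stroma. Endothelial markers, 7 in all, summed to 4.73 and 4.29 RPKM in tumor stromal replicates 1 and 2. In replicates 3 and 4 they summed to 113 and 127, against 29.6 to 122 in healthy stroma. Tumor stromal replicates 1 and 2 held epithelial markers at 224 and 130 RPKM, and replicates 3 and 4 held neutrophil markers at 1580 and 535. Apc, the targeted gene, read 5.97 to 6.51 RPKM in tumor and 0.343 to 3.34 in healthy epithelium, and a value over the whole gene does not check a deletion of some exons.

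**Figure D1:**
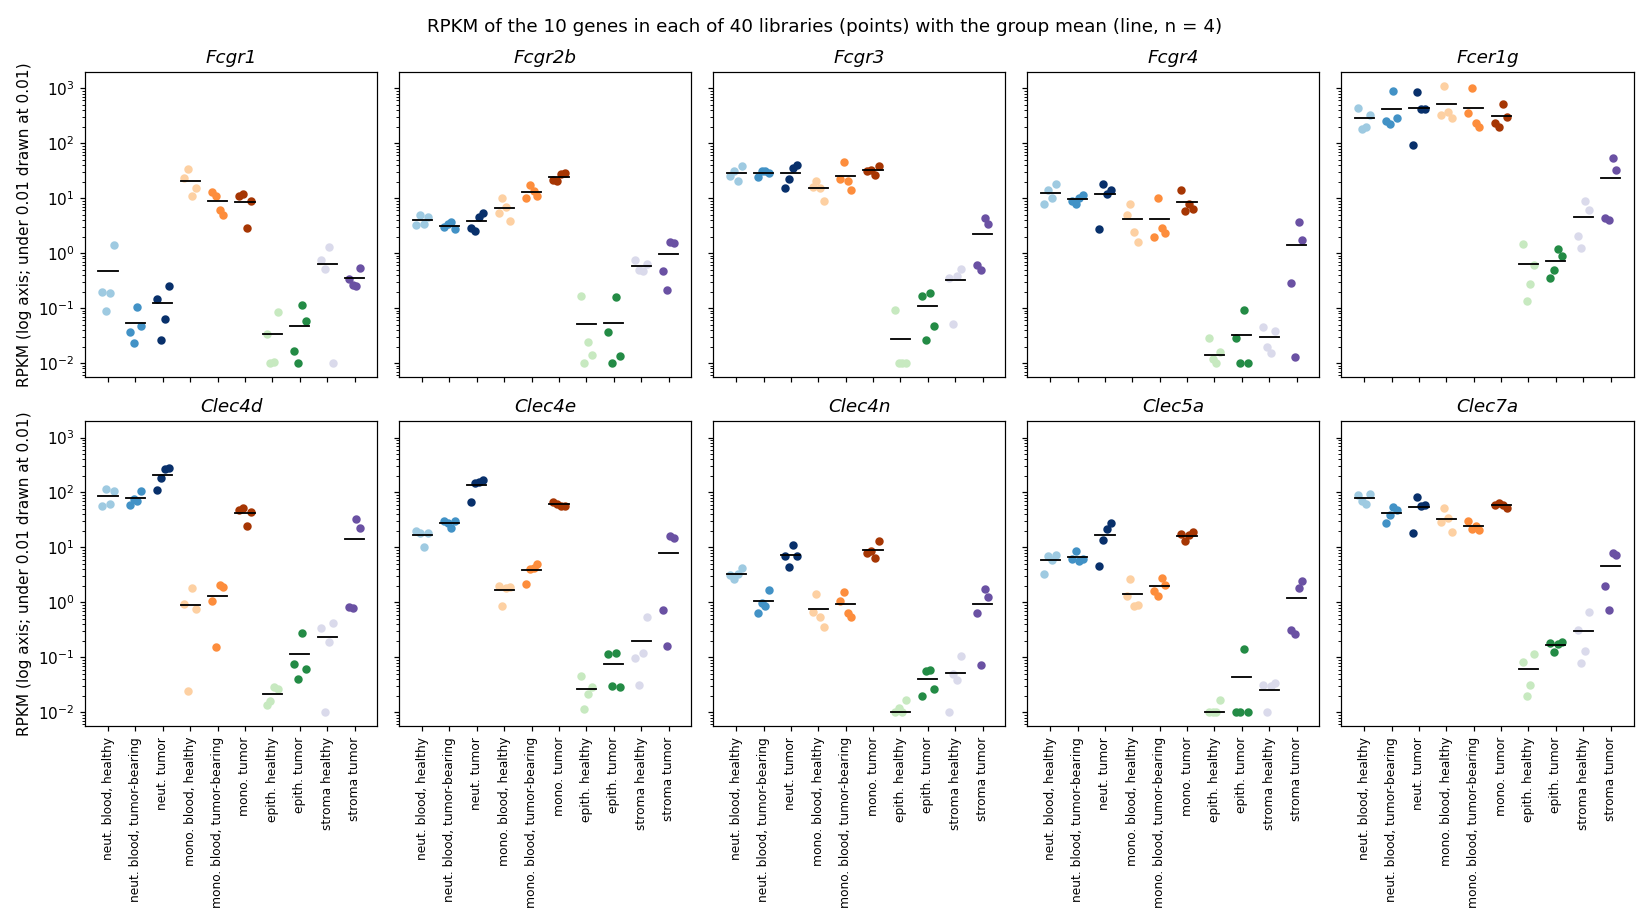
RPKM on a log axis of each of the 10 genes in the 40 libraries, by group (points are libraries, lines are group means, n = 4, and values under 0.01 are drawn at 0.01). Fcer1g is at 92.6 RPKM or more in all 24 neutrophil and monocyte libraries, Fcgr1 is high in monocytes and not in neutrophils, and Clec4d and Clec4e rise from blood to tumor in both cell types.

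Tumor was first compared with blood of the same kind of mice, to ask how cells in the tumor differed from those in circulation. In monocytes the 5 C-type lectins were higher in tumor than in blood, 4 of them by 10-fold or more, while no Fc receptor passed the thresholds. In neutrophils, Clec4e, Clec4n and Clec4d rose and the rest did not pass. In bulk samples, fewer cells of a type and less RNA per cell cannot be told apart. A gene was called when edgeR's quasi-likelihood test gave a Benjamini-Hochberg adjusted p under 0.05 and a log2 fold change beyond 1.5 in either direction.

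Clec4e, whose product binds mycobacterial cord factor and a ribonucleoprotein of dead cells, rose in both cell types. In tumor monocytes it read 68.5, 60.8, 57.6 and 56.7 RPKM, and in blood monocytes of tumor-bearing mice 2.15, 4.13, 4.20 and 4.92. All tumor libraries were above all blood libraries, with a log2 fold change of 4.225 ± 0.303 (SE, 18.7-fold, edgeR adjusted p = 1.37e-05). In tumor neutrophils Clec4e read 65.8, 148, 156 and 167 RPKM against 30.0, 28.0, 22.9 and 30.7 in blood. The groups again did not overlap, and replicate 1 was lowest of the tumor libraries. The log2 fold change was 2.41 ± 0.46 (SE, 5.31-fold, edgeR adjusted p = 0.00532).

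Clec4d, the neighbour of Clec4e whose product forms heterodimers with it, moved over a far wider range in monocytes. It read 48.8, 51.8, 25.0 and 44.6 RPKM in tumor monocytes and 1.05, 0.155, 2.08 and 1.89 in blood monocytes, a log2 fold change of 5.27 ± 0.66 (SE, 38.7-fold, edgeR adjusted p = 0.000474). Tumor monocytes were all above blood monocytes, of which replicate 2 was the lowest. Neutrophils held Clec4d already in blood, at 60.1, 77.0, 69.3 and 106 RPKM, and at 111, 181, 271 and 281 in tumor. These ranges did not overlap, but the log2 fold change of 1.517 ± 0.425 (SE, 2.86-fold, edgeR adjusted p = 0.0323) lay just past the fold threshold. The call was lost when any library but tumor neutrophil replicate 1 was left out (7 of 8 omissions, log2 fold change 1.34 to 1.79 and adjusted p 0.00208 to 0.11 over all 8). It was also lost by limma-voom, DESeq2, RLE size factors, no filter, the replicate block, both RPKM scales and the fit of all 40 libraries (1.36 to 1.497).

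Clec4n, which encodes the receptor for fungal mannans, was low in blood and rose in both cell types. Tumor neutrophils read 7.08, 4.39, 11.2 and 6.99 RPKM against 0.636, 0.980, 0.843 and 1.71 in blood, a log2 fold change of 2.835 ± 0.478 (SE, 7.14-fold, edgeR adjusted p = 0.00268). Tumor monocytes read 8.06, 8.72, 6.43 and 13.15 RPKM against 1.06, 1.57, 0.644 and 0.543, a log2 fold change of 3.495 ± 0.412 (SE, 11.3-fold, edgeR adjusted p = 0.000329). Neither pair of ranges overlapped, and the tumor ranges of the 2 cell types overlapped.

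Clec5a, whose product amplifies myeloid activation, rose in monocytes from 1.65, 1.31, 2.77 and 2.12 RPKM in blood to 17.4, 12.9, 16.8 and 18.75 in tumor, or by a log2 fold change of 3.33 ± 0.29 (SE, 10.0-fold, edgeR adjusted p = 4.72e-05). In neutrophils it read 6.26, 8.71, 5.64 and 6.08 RPKM in blood and 4.62, 13.5, 21.5 and 28.15 in tumor. Tumor replicate 1, the library with the epithelial markers, was below all blood libraries and the other 3 were above them. The log2 fold change of 1.44 ± 0.50 (SE, edgeR adjusted p = 0.0732) missed both thresholds, and without that library it was 1.79 (adjusted p = 0.00147) and was called.

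Clec7a, the beta-glucan receptor, rose in monocytes from 30.4, 21.4, 24.3 and 20.4 RPKM to 59.2, 65.6, 59.4 and 53.3, a log2 fold change of 1.56 ± 0.19 (SE, 2.96-fold, edgeR adjusted p = 0.000342) that stayed close to the fold threshold, with a call lost without blood monocyte replicate 4 (1.49), on the RPKM scale (1.28 and 1.31) and in the fit of all 40 libraries (adjusted p = 0.0966). In neutrophils its 4 tumor libraries, at 18.4, 82.7, 56.2 and 59.7 RPKM, overlapped the blood libraries at 27.5, 39.2, 55.6 and 48.1 (log2 fold change 0.555 ± 0.552 SE, edgeR adjusted p = 0.528).

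Among the Fc receptors, the inhibitory Fcgr2b had the clearest difference in monocytes. It read 20.99, 20.3, 27.0 and 28.3 RPKM in tumor and 10.2, 17.1, 13.6 and 10.8 in blood, without overlap, and its log2 fold change of 1.16 ± 0.24 (SE, edgeR adjusted p = 0.00831) passed on p but not on fold. B cells also express Fcgr2b, and 7 B cell markers summed to 3.37 to 13.9 RPKM in tumor monocytes against 17.6 to 65.3 in blood monocytes, with 5 of the 7 at no more than 0.1 RPKM in tumor and 4 of 7 in blood. Dendritic cells can also hold it, and 9 of their markers summed to 113 to 344 RPKM in tumor and 16.1 to 610 in blood monocytes. The part of either cell type in this difference was not tested. In neutrophils Fcgr2b stayed between 2.55 and 5.31 RPKM in tumor and 2.72 and 3.65 in blood (log2 fold change 0.30 ± 0.33 SE, edgeR adjusted p = 0.572).

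The activating receptors did not pass in either cell type. Fcgr3 was 15.4 to 41.0 RPKM in tumor neutrophils and 24.4 to 31.4 in blood neutrophils, with a fitted difference of 0.06 ± 0.38 (SE) on the log2 scale that turned negative under limma-voom, with no filter and on the RPKM scale. In monocytes it was 26.2 to 38.7 in tumor and 14.0 to 45.2 in blood (log2 fold change 0.58 ± 0.33 SE, edgeR adjusted p = 0.261). Fcgr4, the receptor for IgG2 subclasses on mouse myeloid cells, read 13.9, 5.83, 7.72 and 6.44 RPKM in tumor monocytes and 2.00, 9.89, 2.87 and 2.28 in blood monocytes (log2 fold change 1.25 ± 0.56 SE, edgeR adjusted p = 0.158). Blood replicate 2 alone lay within the tumor range, and without it Fcgr4 was called at 2.14 (edgeR adjusted p = 0.0107). That library also had the highest dendritic cell marker sum, 610 RPKM. Tumor monocyte replicate 1, with the highest Fcgr4, had the lowest such sum of its group, 113 RPKM. The part of dendritic cells in these values was not tested. Fcgr1, the high-affinity IgG receptor, read 10.8, 11.7, 2.92 and 8.85 RPKM in tumor and 13.02, 10.9, 6.22 and 4.94 in blood monocytes (log2 fold change 0.21 ± 0.41 SE, edgeR adjusted p = 0.776), a difference that turned negative on the RPKM scale. In these neutrophils Fcgr1 was at or under 0.254 RPKM and did not pass the filter on low counts.

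Fcer1g, the subunit that most of these receptors need, had the highest mean RPKM of the 10 in these 4 groups and was not called in either cell type. It read 92.6, 849, 415 and 414 RPKM in tumor neutrophils against 251.4, 226, 904 and 284 in blood (log2 fold change 0.34 ± 0.77 SE, edgeR adjusted p = 0.794). In monocytes it read 230, 200, 514 and 296 in tumor against 362, 1000, 229 and 195 in blood (log2 fold change -0.25 ± 0.52 SE, edgeR adjusted p = 0.791). The tumor and blood ranges overlapped in both. The log2 ratio of Fcer1g to the summed RPKM of Fcgr1, Fcgr3, Fcgr4, Clec4d, Clec4e and Clec4n was 3.08 ± 0.52 (SD, n = 4) in blood and 0.85 ± 0.83 in tumor monocytes, and 1.27 ± 1.00 in blood and -0.12 ± 0.96 in tumor neutrophils. Blood and tumor ranges were apart in monocytes (2.64 to 3.80 and 0.223 to 2.03) and overlapped in neutrophils (0.646 to 2.75 and -1.13 to 1.18). The sum holds Clec4d, Clec4e and Clec4n, whose rises are given above, and this ratio was not tested.

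In all, 5 of the 10 genes tested rose in tumor monocytes, all of them lectins, against a background of 7.76% of 15280 genes called higher and 3.89% called lower. In neutrophils 3 of the 9 tested rose, against 11.9% of 13674 genes called higher and 4.41% called lower. Of all called genes, 72.9% were higher in neutrophils from tumor and 66.6% in monocytes, shares that became 62.1% and 72.9% on the log2(RPKM + 1) scale. The median log2 fold change of the genes was 1.41 in monocytes, where that of all genes tested was -0.03, and 0.555 in neutrophils, where it was 0.11. By edgeR, limma-voom or DESeq2, 0 of the 9 tested in neutrophils and 0 of the 10 tested in monocytes were called lower, and 0 were lower at an unadjusted p under 0.05.

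Markers of other cells moved with both comparisons. In tumor neutrophils, 9 dendritic cell markers summed to 22 to 34.1 RPKM against 0.767 to 3.41 in blood, with Flt3, Ciita, Cd209a and Xcr1 at no more than 0.1 in every tumor library, and 10 epithelial markers to 12.1 to 163 against 0.654 to 1.58. The neutrophil markers themselves summed to 1930 to 12500 against 15700 to 20400, and mitochondrial genes took 17 to 37.5% of counts against 9.36 to 16.8%. None of these ranges overlapped. In monocytes the 10 neutrophil markers summed to 36.8 to 69.2 RPKM in tumor and 98.6 to 272 in blood, with Camp at no more than 0.1 in tumor, and the epithelial markers to 1.68 to 34.2 against 0.495 to 0.981, while the mitochondrial share, 18.8 to 31.5% against 17.9 to 25.0%, overlapped. The part of these signals in the changes of the lectins was not tested.

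**Figure D2:**
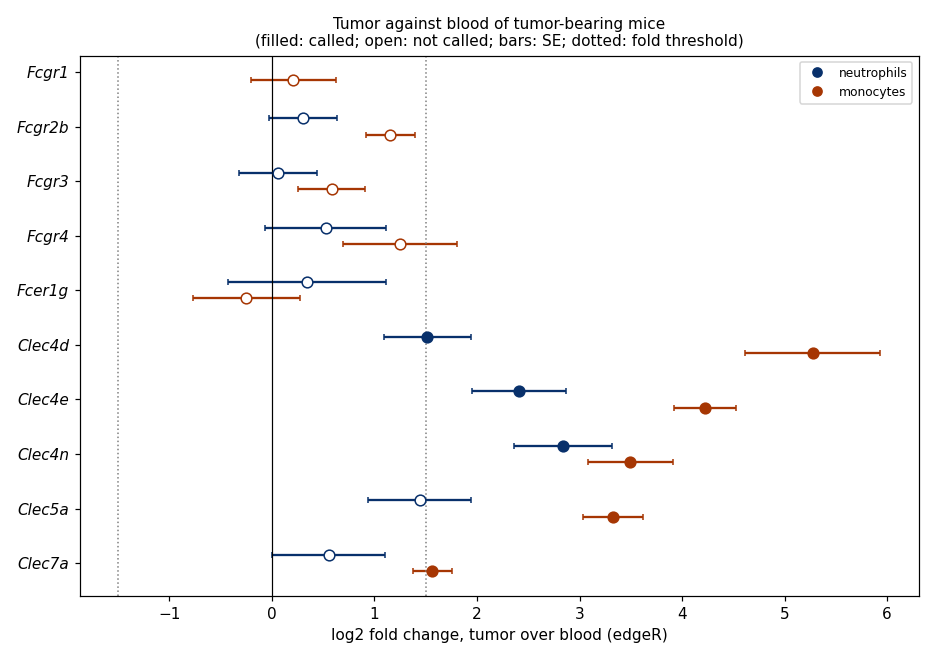
Log2 fold change of each gene in tumor over blood of tumor-bearing mice, for neutrophils and monocytes (points with SE bars, filled where called, open where not, dotted lines at 1.5 in both directions). The points of the lectins lie to the right of those of the Fc receptors, but Clec7a and Fcgr4 lie within SE of each other. They are at 0.555 ± 0.552 and 0.525 ± 0.590 in neutrophils and at 1.564 ± 0.189 and 1.249 ± 0.560 in monocytes. Clec4d is at 5.27 in monocytes and 1.52 in neutrophils.

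Whether the 2 cell types differed in this response was tested as an interaction over 16 libraries. Clec4d rose less in neutrophils than in monocytes, by a difference of -3.86 ± 0.76 on the log2 scale (SE, edgeR adjusted p = 0.00950), and Clec4e by -1.93 ± 0.52 (SE, adjusted p = 0.0447). These were 2 of 10 genes, against a background of 1.23% of 17465 genes called in this direction. The Clec4d difference was called in all 16 fits that left out a library. The Clec4e difference was not, since its call was lost in 14 of the 16 (adjusted p 0.0163 to 0.0888 over all 16), under RLE size factors, with the replicate block and in the fit of all 40 libraries, and it was called without tumor neutrophil replicate 1 or 2. Clec5a had a difference (-1.99 ± 0.61 SE) that did not pass (edgeR adjusted p = 0.0741), and it passed without tumor neutrophil replicate 1 (-1.64, adjusted p = 0.0233), by DESeq2 (-1.88) and with at least 10 counts in every library (-1.81). For Clec4n (-0.78 ± 0.60 SE) and Clec7a (-1.12 ± 0.62 SE), and for Fcgr2b (-0.965 ± 0.411 SE, adjusted p = 0.186), no difference between the cell types was called.

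Neutrophils and monocytes were next compared with each other in each place. In blood of healthy mice, 7 genes were higher in neutrophils (background 16.7% of 15033 genes) and 1, Fcgr1, was lower (background 20.4%). Clec4d differed most, at 57.9, 114.5, 60.6 and 108 RPKM in neutrophils and 0.933, 0.0248, 1.84 and 0.743 in monocytes, a log2 fold change of 7.35 ± 0.87 (SE, edgeR adjusted p = 0.000122). The groups did not overlap, and monocyte replicate 2 was far below the other 3. With 1.65 counts that library fell under the filter on low counts. Clec4d thus passed the filter only with the neutrophil libraries, where it was high, and its value is given as a description. Clec4e followed at 4.102 ± 0.315, with 10.1 to 19.9 RPKM in neutrophils and 0.866 to 2.02 in monocytes. Clec4n (2.96 ± 0.47), Clec5a (2.834 ± 0.435), Fcgr4 (2.40 ± 0.49), Clec7a (2.02 ± 0.30) and Fcgr3 (1.73 ± 0.27) were also called. On the log2(RPKM + 1) scale the calls of Clec4n (1.33), Fcgr4 (1.492), Clec7a (1.27) and Fcgr3 (0.92) were lost, and with a pseudocount of 0.1 those of Clec7a (1.30) and Fcgr3 (0.96). Fcgr1 read 22.9, 33.4, 10.9 and 15.6 RPKM in healthy blood monocytes and 0.195, 0.0898, 0.189 and 1.42 in neutrophils, a log2 fold change of -4.62 ± 0.89 (SE, edgeR adjusted p = 0.00202). Neutrophil replicate 4 was the highest of its group by far. Fcgr2b (0.07 ± 0.29) and Fcer1g (-0.10 ± 0.47) were not called, and both changed sign with the scaling or the fit.

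In blood of tumor-bearing mice, 5 genes were higher in neutrophils (background 15.1% of 14462 genes) and Fcgr1 alone was lower (background 23.0%). Clec4d (6.64 ± 0.69 SE), Clec4e (3.56 ± 0.29), Clec5a (2.475 ± 0.281), Fcgr4 (1.88 ± 0.51) and Clec7a (1.57 ± 0.26) made up the 5, all by edgeR and all on the log2 scale. On the log2(RPKM + 1) scale the calls of Clec5a (1.38), Fcgr4 (1.21) and Clec7a (0.77) were lost, and those of Fcgr4 (1.45) and Clec7a (0.79) also with a pseudocount of 0.1 and in the fit of all 40 libraries. Clec7a was not called by limma-voom (1.48), with no filter (1.46) or with at least 10 counts in every library (1.33). Fcgr1 was at -6.64 ± 0.55 (SE, edgeR adjusted p = 9.22e-06), but it reached the filter on low counts in 1 of 4 neutrophil libraries and so was tested only through the monocytes. Clec4n was no longer called (0.88 ± 0.50 SE, adjusted p = 0.161), and its range in neutrophils, 0.636 to 1.71 RPKM, overlapped that in monocytes, 0.543 to 1.57. Fcgr2b was at -1.31 ± 0.23 (SE, adjusted p = 0.000827), under the fold threshold, and it passed on the RPKM scale (-1.72 and -1.97) and with at least 10 counts in every library (-1.547). Markers of other cells differed between the cell types too. In healthy blood the dendritic cell markers summed to 2.63 to 22.5 RPKM in neutrophils and 32.7 to 333 in monocytes and the B cell markers to 15.9 to 26.2 and 37.5 to 58.3, and in blood of tumor-bearing mice the sums were 0.767 to 3.41 and 16.1 to 610, and 1.79 to 6.61 and 17.6 to 65.3. Their part in these differences was not tested.

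In tumor fewer of the genes were called between the cell types, and fewer of all genes too. Of all genes tested, 9.82% were higher and 4.00% lower in tumor. These shares were 16.7% and 20.4% in healthy blood and 15.1% and 23.0% in blood of tumor-bearing mice. The tumor fit also held epithelial and stromal libraries, which the blood fits did not. In a fit of the 16 tumor libraries, Clec4d was higher in neutrophils (3.04 ± 0.92 SE, edgeR adjusted p = 0.0349, background 9.82% of 19026 genes) and Fcgr1 was lower (-5.57 ± 0.86 SE, adjusted p = 0.00089, background 4.00%). Fcgr1 had only 4.02 to 41.5 counts in the tumor neutrophil libraries, so the size of its fold rests on values near the floor and is a description. The Clec4d call did not hold with the label replicate number as a block (2.67, adjusted p = 0.0580) nor with the animal named in the title as a block (2.59, adjusted p = 0.206), where 3 of the 4 pairs came from the same animal, nor in 7 of the 16 fits without 1 library, which left out 1 of the 4 monocyte libraries or neutrophil replicate 2, 3 or 4 (adjusted p 0.0636 to 0.091 in these), nor with no filter (2.78) or on the RPKM scale (2.24 and 2.27). Fcgr2b was just short at -1.99 ± 0.66 (SE, adjusted p = 0.0503), and was called with the replicate block (-2.025, adjusted p = 0.0246), by limma-voom (-2.115), by DESeq2 (-1.994), with no filter, on the RPKM scale and in the fit of all 40 libraries, but not with the animal block (-2.224, adjusted p = 0.0804). A fit of the 8 neutrophil and monocyte libraries alone, chosen after seeing the data, called 4 genes, Fcgr1, Fcgr2b (-2.14), Clec4d (2.91) and Clec4e (1.76). Clec4n at 4.39 to 11.2 RPKM in neutrophils and 6.43 to 13.15 in monocytes, and Clec5a at 4.62 to 28.15 and 12.9 to 18.75, overlapped between the cell types, and their fitted differences of 0.36 ± 0.59 and 0.78 ± 0.79 turned negative on the RPKM scale, as did those of Fcgr3 and Clec7a. On that scale the median of all genes was -0.05 (pseudocount 1), against 0.31 in the edgeR fit. The change in this difference from blood to tumor is the interaction tested above.

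**Figure D3:**
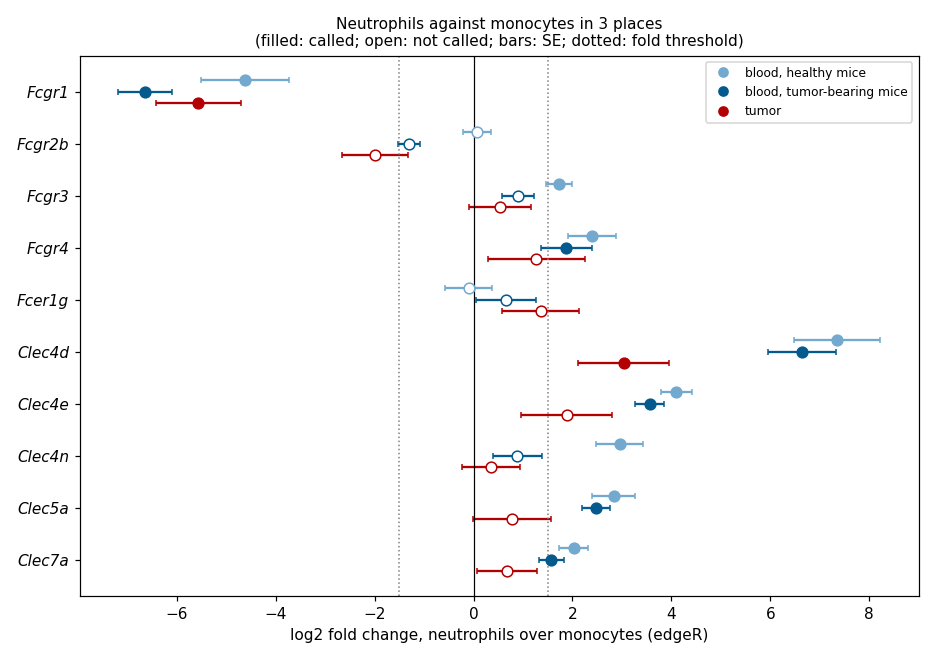
Log2 fold change of each gene in neutrophils over monocytes in healthy blood, in blood of tumor-bearing mice and in tumor (points with SE bars, filled where called, dotted lines at 1.5 in both directions). Fcgr1 lies far to the left in all 3 places, and Clec4d lies at 7.35, 6.64 and 3.04.

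Blood cells of tumor-bearing and healthy mice were compared to ask whether circulating cells already differed. In neutrophils 1 of 10 genes was called, Clec4n, which was lower in tumor-bearing mice (background 2.22% of 13360 genes lower and 1.79% higher). It read 0.636, 0.980, 0.843 and 1.71 RPKM there and 3.13, 2.62, 3.32 and 4.29 in healthy mice. The ranges did not overlap, and the log2 fold change was -1.66 ± 0.38 (SE, edgeR adjusted p = 0.0296). The call was lost in 6 of 8 fits without 1 library (adjusted p 0.0184 to 0.0921 over the 8), the exceptions being those without tumor-bearing replicate 4 and without healthy replicate 2, and with no filter, on the log2(RPKM + 1) scale (-1.10) and in the fit of all 40 libraries. Clec4e read 19.9, 18.2, 10.1 and 18.7 RPKM in healthy mice and 30.0, 28.0, 22.9 and 30.7 in tumor-bearing mice, without overlap and with a log2 fold change of 0.78 ± 0.20 (SE, edgeR adjusted p = 0.0460) that passed on p alone. Clec7a read 27.5 to 55.6 RPKM against 61.5 to 94.4, without overlap, but did not pass (-0.84 ± 0.27 SE, adjusted p = 0.0979). Fcgr1 was at -3.17 ± 0.97 (SE, adjusted p = 0.0825), from values of 0.105 RPKM or less against 0.0898 to 1.42, and was called by DESeq2 (-3.17). It reached the filter on low counts in 1 of the 4 tumor-bearing libraries, and so was tested only through the healthy ones. Fcgr2b, Fcgr3, Fcgr4, Fcer1g, Clec4d and Clec5a had differences between -0.365 and 0.606, none called. The summed neutrophil markers moved with this comparison, at 15700 to 20400 RPKM in tumor-bearing and 3790 to 8660 in healthy mice, among them the granule genes Camp (5.79 to 30.1 against 0.111 to 1.71) and Ltf (11.4 to 33.8 against 0.288 to 1.47), and the summed B cell markers were at 1.79 to 6.61 against 15.9 to 26.2. Their part in these differences was not tested.

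In monocytes 0 of 10 genes were called by edgeR, limma-voom or DESeq2, where 4 had an unadjusted edgeR p under 0.05, and the background was 0.209% of 15313 genes in either direction. Those 4 were Clec4e (1.34 ± 0.35 SE), Fcgr2b (1.089 ± 0.315), Fcgr3 (0.86 ± 0.37) and Fcgr1 (-1.16 ± 0.39), with edgeR adjusted p from 0.178 to 0.494. For Clec4e, healthy monocytes read 2.02, 0.866, 1.84 and 1.90 RPKM and those of tumor-bearing mice 2.15, 4.13, 4.20 and 4.92, with no overlap. For Fcgr2b, healthy monocytes read 5.38, 10.1, 6.86 and 3.77 against 10.2, 17.1, 13.6 and 10.8, the highest healthy value lying just under the lowest of the tumor-bearing mice. B cell markers summed to 37.5 to 58.3 RPKM in healthy and 17.6 to 65.3 in tumor-bearing monocytes.

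The balance of activating and inhibitory receptors was described as the log2 ratio of the summed RPKM of Fcgr1, Fcgr3 and Fcgr4 to that of Fcgr2b, with 0.1 added to each. In monocytes it was 2.60 ± 0.41 (SD, n = 4) in healthy blood, 1.47 ± 0.50 in blood of tumor-bearing mice and 1.02 ± 0.44 in tumor. Healthy libraries, at 2.05 to 3.01, lay above all those of tumor-bearing blood, at 0.98 to 1.95, whereas tumor libraries, at 0.45 to 1.43, overlapped the latter. Over these monocyte groups, in the same order, the mean RPKM of Fcgr2b was 6.54, 12.9 and 24.1, and that of Fcgr3 was 15.2, 25.5 and 32.25. Fcgr1 was at 20.7, 8.77 and 8.57, and Fcgr4 at 4.15, 4.26 and 8.48. The split of reads between Fcgr2b and Fcgr3 is less certain, as given above. In neutrophils the ratio was 3.34 ± 0.24, 3.56 ± 0.17 and 3.32 ± 0.53 in the same order, with overlapping ranges. No test was run on this ratio. The ratio of Clec4e to Clec4d had a log2 value of -2.32 ± 0.53 in healthy blood neutrophils, -1.46 ± 0.33 in those of tumor-bearing mice and -0.65 ± 0.24 in tumor neutrophils, the tumor libraries lying above all blood libraries. In monocytes it was 1.31 ± 1.22 in healthy blood, 1.83 ± 1.49 in blood of tumor-bearing mice and 0.565 ± 0.435 in tumor, a lower mean in tumor with ranges that overlapped. This ratio was not tested either.

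**Figure D4:**
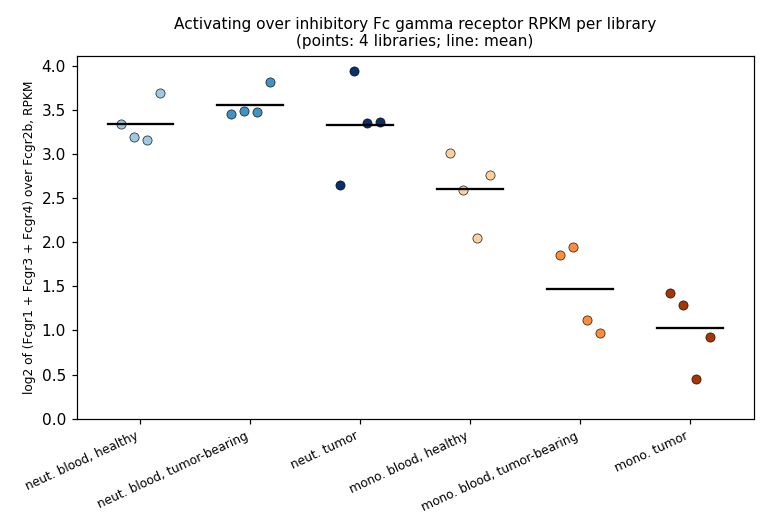
Log2 ratio of the summed RPKM of Fcgr1, Fcgr3 and Fcgr4 to the RPKM of Fcgr2b in 24 neutrophil and monocyte libraries (points are libraries, lines are means, n = 4). The neutrophil groups have means of 3.32 to 3.56, while the monocyte means step down from 2.60 to 1.47 and 1.02.

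Epithelial libraries held almost none of these transcripts, with Fcer1g at 0.133 to 1.49 RPKM and no other member above 0.277 in any of 8 libraries. In tumor against healthy epithelium, 6 of the 10 genes did not pass the filter on low counts, and 0 of the 4 that did were called by edgeR, limma-voom or DESeq2 (0 at an unadjusted edgeR p under 0.05, background 15.4% of 16085 genes in either direction). Clec4n was at no more than 2.35 counts and Clec4d at no more than 3.45 counts in any healthy epithelial library, and no fold is given for them.

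Stromal libraries were uneven. Clec4d read 0.840, 0.794, 33.5 and 22.5 RPKM in the 4 tumor stromal libraries and at most 0.419 in healthy stroma. Clec4e read 0.741, 0.161, 16.2 and 14.6 against at most 0.540, and Fcer1g 4.29, 4.08, 53.2 and 32.3 against 1.25 to 8.84. Replicates 3 and 4 were high for all of these, and these are the libraries with neutrophil markers at 1580 and 535 RPKM and with 6 pan-leukocyte markers at 82.5 and 92.2 against 8.57 and 4.81 in replicates 1 and 2. They stood apart in other ways too. Endothelial markers summed to 113 and 127 RPKM against 4.73 and 4.29, and dendritic cell markers to 173 and 197 against 72.9 and 50.8. Mast cell markers summed to 18.7 and 12.2 against 2.73 and 1.87, and B cell markers to 12.2 and 53.7 against 3.26 and 1.82. Epithelial markers were lower, at 49.1 and 28.1 against 224 and 130. Mitochondrial genes took 27.4 and 24.8% of counts against 55.4 and 62.9%. Of 8 genes tested, Clec4d (6.185 ± 1.548 SE, edgeR adjusted p = 0.0397) and Clec7a (4.16 ± 0.92, adjusted p = 0.0258) were called higher in tumor stroma, beside Clec5a (background 3.39% of 19081 genes). Clec5a reached the filter on low counts in 4 of 4 tumor and 0 of 4 healthy stromal libraries, where it had 1.56 to 12.04 counts, so it was tested only through the group where it was high, and its fitted value (5.81 ± 0.90, adjusted p = 0.00791) is given as a description. Clec4d and Clec7a fell under this filter in healthy stromal replicate 2, at 0.0272 and 8.51 counts. They too passed it only with the tumor libraries, where they were high, so their values are a description as well. The part of the neutrophils, or of the other signals that move with them, in these differences was not tested beyond leaving the libraries out. Without both replicates 3 and 4, a choice made after seeing the data, Clec4d was at 2.22 (adjusted p = 0.188) and Clec7a at 2.52 (adjusted p = 0.0625), neither called, and Fcgr2b turned to -0.41. Without both replicates 1 and 2, 9 of 10 genes were called, all but Fcgr1, among them Clec5a, Fcgr4 and Clec4n, which had at most 12.04, 5.69 and 10.21 counts in any healthy stromal library. With 1 library left out at a time, Clec4d lost its call in 6 of the 8 fits and Clec7a in 4 of 8, and Clec4d also lost it by limma-voom (5.73), with the replicate block (5.46) and on the RPKM scale.

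**Figure D5:**
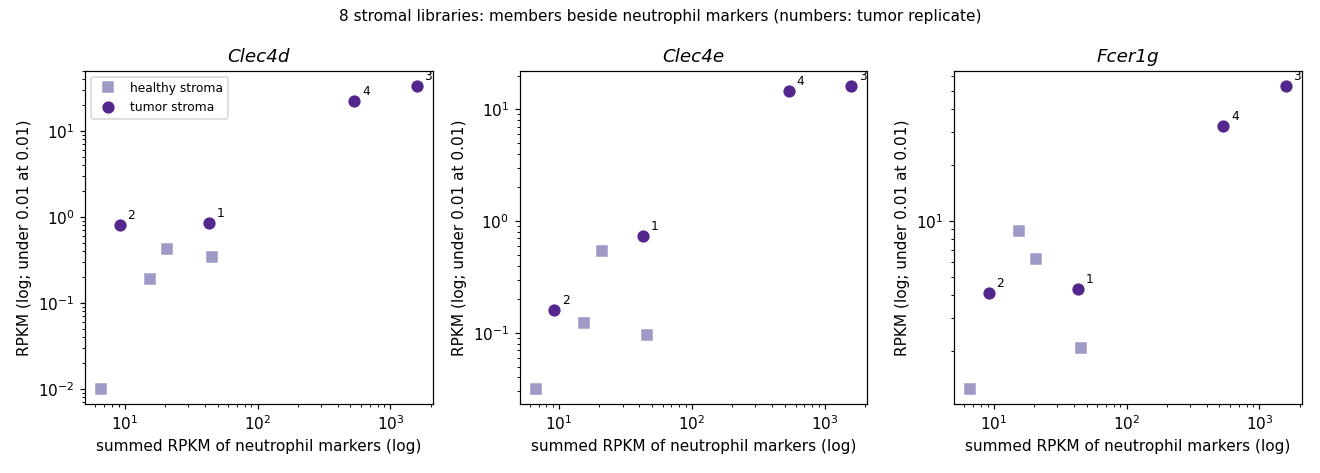
RPKM of Clec4d, Clec4e and Fcer1g against the summed RPKM of 10 neutrophil markers in the 8 stromal libraries, both on log axes (numbers give the tumor replicate, values under 0.01 are drawn at 0.01). Tumor replicates 3 and 4 lie at the upper right, with Clec4d at 33.5 and 22.5 RPKM, and replicates 1 and 2 lie below them.

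Across the tumor, myeloid cells (mean of neutrophils and monocytes) were set against non-myeloid cells (mean of epithelial and stromal cells), which the sort on CD45 and CD11b separates by design, so the values are a description. The log2 differences ran from 3.57 ± 0.56 (SE) for Fcgr1, which was at or under 0.254 RPKM in tumor neutrophils, to 7.525 ± 0.844 for Clec4e. All 10 genes were past both thresholds, beside 14.9% of 19026 genes, but Fcgr4 and Clec4n reached the filter on low counts in 0 of 4 epithelial and 3 of 4 stromal libraries and so were tested only through the myeloid cells, and just Fcer1g and Clec7a had 10 counts or more in all 16 libraries. Fcgr1 lost its call on the log2(RPKM + 1) scale (1.40). The non-myeloid side held tumor stromal replicates 3 and 4 with their neutrophil markers, and without both, a choice made after seeing the data, the differences of 9 genes, all but Fcgr1 (3.59), were larger by more than 1.5-fold, with Clec4e at 9.516, Clec4d at 8.815 and Fcer1g at 8.33.

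The rest of the pathway was read from 4 lists. Of 19 ITAM adaptors and signaling genes, 1 was called higher and 0 lower in tumor against blood neutrophils, and 1 higher and 1 lower in monocytes, with medians of -0.565 and -0.324 on the log2 scale, against 0.11 and -0.03 for all genes, of which 11.9% and 4.41% were called higher and lower in neutrophils and 7.76% and 3.89% in monocytes. The one that rose was Malt1, the protease of the CARD9 complex downstream of Syk, at 2.207 ± 0.315 (SE, edgeR adjusted p = 0.00124) in neutrophils and 3.04 ± 0.19 (adjusted p = 7.5e-06) in monocytes, where it went from 4.665 ± 0.719 RPKM (SD, n = 4) in blood to 32.3 ± 3.16 in tumor. Pik3cd, a phosphoinositide 3-kinase subunit, fell in monocytes by 1.54 ± 0.385 on the log2 scale (adjusted p = 0.0202). Of 8 inhibitory phosphatases and ligases, Dok3, an inhibitory adaptor, fell in both neutrophils (-1.80 ± 0.51 SE, edgeR adjusted p = 0.0338) and monocytes (-2.22 ± 0.39, adjusted p = 0.00322). In neutrophils Cblb (3.58) and Inppl1 (3.80) were called higher at means of 1.29 and 0.286 RPKM, against 0.101 and 0.021 in blood. The medians of this list were -0.01 and -0.56. Of 10 other Fc receptors, 4 passed the filter in each comparison. Pigr, which carries immunoglobulin across epithelium, was called higher in neutrophils (6.74) and in monocytes (4.25), at means of 3.37 and 1.06 RPKM. Its means in blood were 0.033 and 0.063 RPKM. Summed epithelial markers were also higher in tumor (12.1 to 163 and 1.68 to 34.2 RPKM) than in blood (0.654 to 1.58 and 0.495 to 0.981). Fcrlb was called higher in monocytes (6.19), at 1.21 RPKM against 0.019 in blood. The list medians were 1.779 and 1.865. Of 19 other C-type lectins, 15 were tested in neutrophils with 3 higher and 1 lower, and 17 in monocytes with 1 higher and 2 lower, with medians of -0.88 and -0.74. Olr1, the receptor for oxidized lipoprotein, rose from 1.10 ± 0.16 (SD, n = 4) to 30.6 ± 7.44 RPKM in neutrophils (log2 fold change 4.87 ± 0.39 SE, edgeR adjusted p = 0.00014) and from 1.225 ± 0.652 to 28.5 ± 10.1 in monocytes (4.827 ± 0.555, adjusted p = 0.000274). Clec4a1, another C-type lectin, fell by 1.69 ± 0.48 in monocytes (adjusted p = 0.0346). Also called were Mrc1 (6.23) and Clec1a (2.16) higher and Clec12a (-2.54) lower in neutrophils, and Clec2i (-1.65) lower in monocytes. Mrc1 had a mean of 0.280 RPKM in tumor neutrophils and 0.0033 in blood neutrophils. The folds of Pigr, Fcrlb, Mrc1 and Inppl1 rest on blood values near the floor and are given as a description. Cblb, Inppl1, Pigr, Fcrlb, Mrc1, Clec1a, Clec12a and Clec2i were named after their values were seen, and the others by the rule for named genes.

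For likeness of pattern, each gene was set against 4904 genes over the 40 libraries by Pearson's r of log2(RPKM + 1), as a description, since the libraries share their cell types. Nearest were Il1r2 to Clec4d (r = 0.984), Cd14 to Clec4e (0.978), Cd80 to Clec4n (0.945), Tlr2 to Clec5a (0.958) and Syk to Clec7a (0.979). Among the Fc receptors they were Gm10212 to Fcgr1 (0.976), Gpr65 to Fcgr2b (0.941), Syk to Fcgr3 (0.987), Lpcat2 to Fcgr4 (0.958) and Gm14699 to Fcer1g (0.984). Within the 10 genes and the 24 neutrophil and monocyte libraries, r was highest between Clec4e and Clec5a (0.913) and between Clec4d and Clec4e (0.896), and lowest between Fcgr1 and Clec4d (-0.829).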

How the data were processed

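RNA of sorted cells was amplified by the authors with a NuGEN Ovation kit, which does not mark strand, and sequenced as single reads. Per the labels, reads were aligned to mm10 with Bowtie2, and the deposited tables give per gene an expected count, fractional in 99.6% of nonzero values, and the authors' RPKM. The annotation release and the treatment of reads matching several genes are not given in the sources used here. The 40 files of single samples and the series table differed by 0.0 counts. RPKM followed library totals only to a factor of 0.65 to 1.57, so its scaling differs from that of the counts. Of 45706 Ensembl IDs, 45143 matched a GENCODE M21 (GRCm38) symbol.

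The members, lists and tests were chosen with earlier results of these data known. Expected counts were rounded to whole numbers and tested with edgeR 4.0.16 (TMM, filterByExpr, robust quasi-likelihood, SE as the log2 fold change over the root of F), with Benjamini-Hochberg adjustment over all genes tested. Calls needed an adjusted p under 0.05 and a log2 fold change beyond 1.5. Alternatives were DESeq2 1.42.0, limma-voom (limma 3.58.1), the replicate number or the title animal as a block, size factors by RLE, keeping every gene, keeping genes with 10 counts or more throughout, one fit of the 40 libraries, no fold threshold, limma on log2(RPKM + 1) and log2(RPKM + 0.1), and leaving out each library (96 fits). The scripts were tested on simulated data. Named genes were all 10 members and, per list and comparison with blood, the 2 called genes with the largest rise and the 2 with the largest fall among those with a mean of at least 5 RPKM in either group, plus, per member, the gene of highest r. In the 60 pairs of replicates the squared difference of counts was 21.5 to 856 times counting error, so none was taken as a library deposited again. All comparisons rest on samples that may share animals. The labels gave replicate number 3 to 2 tumor stromal libraries, which are named replicates 3 and 4 here. Marker and pathway lists held 11 cell types and 4 gene groups.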

Additional observations from a re-analysis of the deposited data

Results flagged for a closer look

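In groups of 4 normal, independent values, chance alone puts 1 value far from the other 3 in about 1 in 20 groups. Of 100 groups looked at (10 genes in 10 groups), 12 held such a library, all in RPKM. RPKM was not put on a log scale here and the genes share libraries, so the 12 cannot be weighed against that rate. In blood these were Fcgr1 in healthy neutrophil replicate 4 (1.416), Fcgr4 in monocyte replicate 2 of tumor-bearing mice (9.894), Fcer1g in neutrophil replicate 3 of tumor-bearing mice (904.2) and healthy monocyte replicate 2 (1113), and Clec4e in healthy monocyte replicate 2 (0.8655, the lowest of its group). In colon tissue, where levels were near the floor, they were Fcgr2b (0.1641) and Fcgr3 (0.09294) in healthy epithelial replicate 1, Clec4d (0.2772) and Clec5a (0.1443) in tumor epithelial replicate 3, Clec7a in tumor epithelial replicate 2 (0.1269, the lowest), and Clec5a in healthy epithelial replicate 4 (0.01645) and healthy stromal replicate 2 (0.005755, the lowest).

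The tumor effect differed between neutrophils and monocytes by the interaction test for Clec4d (-3.864 on the log2 scale, edgeR adjusted p = 0.0095, with adjusted p from 0.00453 to 0.0269 when a library was left out) and for Clec4e (-1.931, adjusted p = 0.0447, from 0.0163 to 0.0888).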

How the results depend on the processing

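Over all alternatives other than leaving out 1 library, 971 values kept their direction and side of the thresholds, 47 lost a call, 35 gained one and 13 changed sign, and over the fits without 1 library these numbers were 982, 46, 10 and 9. A change of sign was not counted where the values lay within 1 SE of 0 in both fits, which held for 61 of 2113 member values compared. The causes were not tested.

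Counts of members called moved by more than 1.5 times as follows. For the interaction (2 called), RLE size factors, the replicate block and the fit of all 40 libraries each gave 1. For blood neutrophils of tumor-bearing against healthy mice (1 called), DESeq2 and no fold threshold gave 2, and no filter, log2(RPKM + 1) and the fit of all 40 libraries gave 0. For neutrophils against monocytes in healthy blood (8 called), log2(RPKM + 1) gave 4, with Clec4n, Fcgr4, Clec7a and Fcgr3 lost. For the same contrast in tumor (2 called), at least 10 counts in every library gave 0, the animal block 1, and the fits without tumor stromal libraries 3 and 4, without 1 and 2, and of 8 libraries, all chosen after seeing the data, gave 4 each. For tumor against healthy stroma (3 called), DESeq2 gave 6, no filter 5, at least 10 counts 1, log2(RPKM + 1) 0, the fit of all 40 libraries 8, and the fits without stromal libraries 3 and 4 or 1 and 2 gave 1 and 9. The 3 and the count without stromal libraries 3 and 4 include Clec5a, tested only through tumor stroma. Clec4d and Clec7a, also among the 3, passed the filter only with the tumor libraries. For myeloid against non-myeloid cells (10 called), at least 10 counts gave 2, since few members were then tested. Leaving out 1 library gave 2 to 4 calls in tumor against blood neutrophils, 4 to 6 in monocytes, 1 to 3 for the interaction, 0 to 1 for blood neutrophils, 0 for blood monocytes, 8 in healthy blood, 5 to 6 in blood of tumor-bearing mice, 1 to 3 in tumor, 0 for epithelium, 1 to 6 for stroma and 10 for myeloid cells.

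Same-numbered libraries were not consistently alike, since in no comparison were all their correlations over 0.1 (range over comparisons -0.198 to 0.25). By title, some of them shared an animal, as did tumor neutrophil and monocyte replicates 2, 3 and 4. The 7 pairs with identical animal names in their titles had r from -0.184 to 0.051. Pairs in which a pooled title names the animal of the other library were not among them. Of these, blood neutrophil and monocyte replicates 3 of tumor-bearing mice had r = -0.161, and replicates 4 of healthy mice had 0.221. Low correlations cannot exclude a shared animal. With the replicate block, Clec4e lost its interaction call (-2.138, adjusted p = 0.0544), Clec4d its calls in tumor against blood neutrophils (1.42) and in stroma (5.46), and Fcer1g gained one in stroma (2.14, adjusted p = 0.0232).

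Sign changes were in genes not called in either fit. On the log2(RPKM + 1) and log2(RPKM + 0.1) scales these were Fcgr2b in healthy blood (-0.534 and -0.623), Fcer1g in blood of tumor-bearing mice (-0.038 in both) and Clec7a in tumor (-0.305 and -0.315) between neutrophils and monocytes, and in epithelium Fcer1g (0.132 and 0.445) and Clec7a (0.137 and 0.755), with limma-voom at 0.386 and 1.248. In stroma Fcgr2b was -0.41 without libraries 3 and 4. Without 1 library, the ranges were -0.067 to 0.892 for Clec7a in tumor against blood neutrophils, -0.686 to 0.571 for Fcer1g in monocytes, -0.19 to 0.882 for Fcer1g in blood neutrophils and -0.946 to 0.567 in blood monocytes of tumor-bearing against healthy mice, -0.69 to 0.703 for Fcgr4 in the latter, -0.352 to 0.639 and -0.097 to 1.488 for Fcer1g between neutrophils and monocytes in healthy blood and in blood of tumor-bearing mice, -0.119 to 1.014 for Clec7a in tumor, and -0.549 to 1.681 for Clec7a in epithelium.

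The scaling moved the whole table too. On log2(RPKM + 0.1) the median of all genes between neutrophils and monocytes went from -0.07 to -0.63 in healthy blood, from -0.12 to -0.65 in blood of tumor-bearing mice and from 0.31 to -0.21 in tumor, and the split of calls went from 2510 higher and 3066 lower to 1195 and 4041 in healthy blood, while the share that were higher went from 39.6% to 21.3% in the other blood and from 71.1% to 25.2% in tumor. It went from 72.9% to 59.4% and from 66.6% to 46.7% for tumor against blood neutrophils and monocytes, from 48.8% to 73.7% in epithelium, from 40.3% to 24.5% in stroma and from 47.9% to 33.6% for myeloid cells, and for the interaction from 69.0% to 41.4% on log2(RPKM + 1).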

Other observations

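In blood of tumor-bearing against healthy mice, of 14 other C-type lectins tested in neutrophils 1 was called higher and 3 lower (median log2 fold change -1.32, against -0.01 for all genes, of which 1.79% were higher and 2.22% lower), while in monocytes 0 of 17 were called by edgeR (0.209% of all genes in either direction). Between neutrophils and monocytes, 4 of 18 of these lectins were higher and 6 lower in healthy blood, 3 and 7 of 17 in blood of tumor-bearing mice, and 1 and 4 of 18 in tumor. Of all genes tested, 16.7% were higher and 20.4% lower in healthy blood, 15.1% and 23.0% in blood of tumor-bearing mice, and 9.82% and 4.00% in tumor, and several of the counts lie near these shares. Of 19 ITAM adaptors and signaling genes, 2 were higher and 1 lower in healthy blood, 2 and 0 in blood of tumor-bearing mice, and 0 and 0 in tumor, to be read beside the same shares.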
